A study of Rattus norvegicus with 12 samples.

Results

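Among the 28727 named entries of the gene table, 10 genes of zinc transport were followed through INS-1 cells with and without added ChREBPβ, namely the transporters Slc30a8, Slc30a1, Slc30a4, Slc30a5, Slc30a7, Slc39a6, Slc39a7, Slc39a10 and Slc39a14 and the zinc efflux protein Tmem163. These 10 genes were selected by name from earlier results of the same libraries, so their levels and calls are given as a description, without p-values. All 10 passed the filter on low counts that 14669 genes passed, with between 356 and 24264 counts for each gene in a library.

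The cells were INS-1 832/13, a clonal insulin-secreting line derived from a rat insulinoma. All cells had received an adenovirus, which carried either GFP, the control, or an mCherry-tagged mouse ChREBPβ, the short and constitutively active product of Mlxipl, a glucose-responsive transcription factor. The glucose concentration was 2 mM or 11 mM over 48 h, which gave 4 groups of 3 libraries, lettered a, b and c. The 48 h is the time given for this experiment, while the study's general adenovirus methods state a longer time in glucose. RNA was amplified before sequencing, and the labels do not say whether the libraries of a group came from separate cultures, while the study describes its expression values as averages of independent experiments. The spread between libraries is the only error measured here. With cultured cells in bulk, fewer cells of a kind and less RNA per cell cannot be told apart.

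Library totals were 25754488 to 32938546 counts with GFP at 2 mM, 36219167 to 46654823 with GFP at 11 mM, 28595982 to 57726412 with ChREBPβ at 2 mM and 57088794 to 60531215 with ChREBPβ at 11 mM. Levels are given as CPM, read counts brought to one common library size after scaling by TMM, a factor that sets the bulk of genes equal between libraries. CPM is not corrected for gene length, so levels are compared between libraries and not between genes. The rat gene Mlxipl was not raised with the ChREBPβ virus, with 202 to 277 CPM over the GFP libraries and 181 to 212 CPM over the ChREBPβ libraries. At each glucose concentration taken alone, every ChREBPβ library was below every GFP library for Mlxipl. The log2 difference was −0.33 (SE 0.05) at 2 mM, called lower, and −0.14 (SE 0.05) at 11 mM, not called. A separate entry named ChREBPb, whose origin is not given in the sources used here, was at 64.7 to 82.2 CPM with GFP and 81.4 to 98.2 CPM with ChREBPβ, and was higher with ChREBPβ in every library only when each glucose concentration was taken alone. Groups are therefore named by their labels. The 10 β-cell markers examined were all detected, with a summed level of 32600 to 35700 CPM in the GFP libraries at 2 mM, 26200 to 28400 CPM with GFP at 11 mM, 17200 to 17800 CPM with ChREBPβ at 2 mM and 16500 to 16900 CPM with ChREBPβ at 11 mM. The virus comparison called 9 of the 10 lower and 1 higher at 2 mM and 8 lower and 1 higher at 11 mM, the higher one being Slc2a2, the glucose transporter, at 437 ± 13.8 CPM in GFP and 618 ± 18.2 CPM in ChREBPβ libraries at 2 mM (SD, n = 3). The summed level of 5 acinar and duct markers was at most 0.0846 CPM in any library. Of 5 blood, vessel and fibroblast markers 4 were in the table, with a summed level of at most 0.634 CPM with GFP and between 0.631 and 1.29 CPM with ChREBPβ. Of these only Cd68 passed the filter, and Ptprc was at 0 counts in every library. The 3 other islet hormones Gcg, Sst and Ppy summed to 1590 to 1720 CPM with GFP and 429 to 502 CPM with ChREBPβ, and of these only Gcg passed the filter. The part of these markers in the results below was not tested.

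Zinc is moved across membranes by 2 large families. Proteins of the Slc30 family (ZnT) carry zinc out of the cytosol, either out of the cell or into vesicles and the Golgi, and proteins of the Slc39 family (ZIP) carry it into the cytosol from outside or from organelles. β-cells hold unusually much zinc, because insulin is packed in the secretory granule as crystals with zinc that Slc30a8 (ZnT8) imports. Free zinc in the cytosol is buffered by metallothioneins and sensed by Mtf1, a transcription factor that binds metal response elements, and Slc30a1 and the metallothionein genes are classical Mtf1 targets. ChREBP proteins act with Mlx on carbohydrate response elements, which are built from E-box-like sequences.

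Promoter windows of 300 bases, from 250 before the annotated start to 50 after it, were read from RefSeq for the GRCr8 assembly, and 7 of the 10 genes had an entry. Slc30a8, Slc30a7 and Slc39a14 had none and could not be searched. The windows were searched on both strands for the E-box CACGTG and for a metal response element core, TGCACNC or TGCGCNC. Of all 33469 rat windows, 6.42% held the E-box and 24.2% held the metal response core. Among the members the E-box was found in the window of Slc30a5 only, 162 bases before the start. Next to it lay a stretch whose metal response matches, 150 and 149 bases before the start on opposite strands, overlap each other. Of the other zinc genes named below, Slc30a3, Slc39a11 and Mt2A held the E-box, at 109, 7 and 202 bases before the start. Slc30a1 held the metal response core at 91 and 18 bases before the start, Slc30a4 held it 3 times and Slc39a7 held it 4 times in each of its 2 windows. The windows of Slc39a7 overlap and hold the same sites, and a pair of its matches overlap each other on opposite strands. Neither motif was found in the windows of Tmem163, Slc39a6 and Slc39a10. The windows below are those of Tmem163, the member with the lowest share of its control level under ChREBPβ, of Slc30a5, the member with the E-box, of Slc30a1, the Mtf1 target among the members, and of the metallothionein gene Mt1, which is no member but carries the metal response core 6 times. Each is written 5′ to 3′ on the strand of the gene, with motif matches in capitals. The Tmem163 window is chr13:41693889-41694188 (minus strand), the Slc30a5 window chr2:33709849-33710148 (minus strand), the Slc30a1 window chr13:106021769-106022068 (plus strand) and the Mt1 window chr19:10832926-10833225 (minus strand).
Tmem163: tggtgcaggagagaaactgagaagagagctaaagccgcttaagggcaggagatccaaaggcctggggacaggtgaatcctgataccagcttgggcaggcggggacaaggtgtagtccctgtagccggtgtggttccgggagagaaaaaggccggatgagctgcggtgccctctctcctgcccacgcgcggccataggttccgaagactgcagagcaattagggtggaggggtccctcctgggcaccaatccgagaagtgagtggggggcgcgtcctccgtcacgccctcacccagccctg
Slc30a5: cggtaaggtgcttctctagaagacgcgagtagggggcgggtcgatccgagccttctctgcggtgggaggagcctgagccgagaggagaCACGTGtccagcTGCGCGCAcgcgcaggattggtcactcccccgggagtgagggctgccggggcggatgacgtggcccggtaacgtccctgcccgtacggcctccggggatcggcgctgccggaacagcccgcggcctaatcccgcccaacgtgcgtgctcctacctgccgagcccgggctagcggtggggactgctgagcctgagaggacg
Slc30a1: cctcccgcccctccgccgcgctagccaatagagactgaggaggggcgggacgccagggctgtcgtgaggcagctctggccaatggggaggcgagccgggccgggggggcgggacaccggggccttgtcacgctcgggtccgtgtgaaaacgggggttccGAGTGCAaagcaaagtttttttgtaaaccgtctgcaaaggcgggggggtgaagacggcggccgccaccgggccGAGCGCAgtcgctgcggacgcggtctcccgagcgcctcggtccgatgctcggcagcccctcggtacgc
Mt1: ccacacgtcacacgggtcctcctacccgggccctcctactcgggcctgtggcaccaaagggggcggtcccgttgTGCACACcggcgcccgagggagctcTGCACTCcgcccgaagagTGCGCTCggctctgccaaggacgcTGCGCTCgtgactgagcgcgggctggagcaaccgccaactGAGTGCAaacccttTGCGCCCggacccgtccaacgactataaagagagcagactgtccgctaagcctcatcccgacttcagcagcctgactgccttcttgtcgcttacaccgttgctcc
A match is a description of the letters, and protein binding was not measured in these libraries.

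Each gene was compared between viruses at each glucose concentration and between glucose concentrations with each virus, in a single edgeR fit of all 12 libraries. A gene was called higher or lower if it changed by no less than 1.2-fold and had an adjusted p under 0.05 over all tested genes. The comparisons share libraries: both the virus and the glucose comparison at 2 mM with GFP use the same 3 controls.

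Slc30a8, the transporter that loads the insulin granule with zinc, was lower with ChREBPβ at both glucose concentrations and lower at 11 mM than at 2 mM with GFP. Its level was 711, 707 and 689 CPM in the GFP libraries at 2 mM (702 ± 11.6, SD, n = 3) and 329, 305 and 315 CPM in the ChREBPβ libraries at 2 mM (316 ± 12.1). At 11 mM it was 524, 548 and 513 CPM with GFP (529 ± 17.8) and 291, 283 and 281 CPM with ChREBPβ (285 ± 5.72). The 4 groups stood in 4 separate steps, from GFP at 2 mM down to ChREBPβ at 11 mM, without overlap between neighbours. Relative to GFP, ChREBPβ cells differed in log2 level by −1.15 (SE 0.04) at 2 mM, 45.0% of the GFP level, and −0.89 (SE 0.04) at 11 mM, 53.9% of the GFP level. With GFP the step from 2 to 11 mM was −0.41 on the log2 scale (SE 0.04), and with ChREBPβ it was −0.15 (SE 0.04), under the minimum change.

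**Figure D1:**
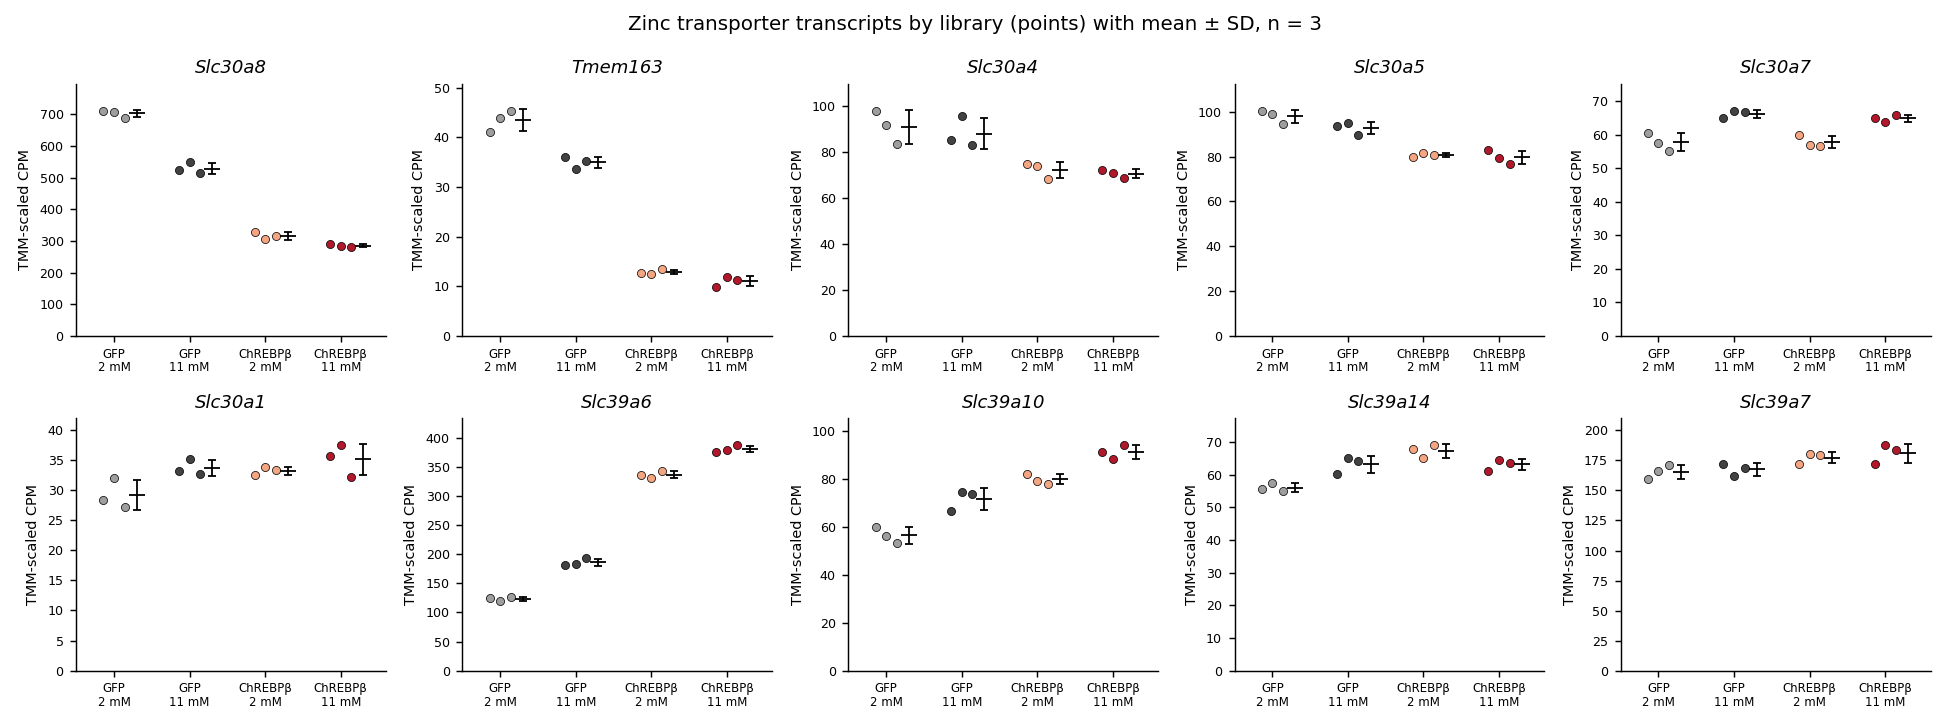
Level of each of the 10 zinc transporter genes in every library (points, TMM-scaled CPM on a linear axis from 0) with the mean ± SD of the 3 libraries of each group. Slc30a8 and Tmem163 step down and Slc39a6 and Slc39a10 step up from GFP at 2 mM to ChREBPβ at 11 mM, while Slc30a7 stays between 55.2 and 67.2 CPM and Slc39a7 between 159 and 188 CPM.

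Tmem163, a zinc efflux protein first described in synaptic vesicles, kept the smallest share of its control level among the 10 genes. It was at 41.0, 44.0 and 45.4 CPM in GFP cells at 2 mM (43.4 ± 2.23, SD, n = 3) and at 36.0, 33.7 and 35.2 CPM in GFP cells at 11 mM. In the ChREBPβ libraries it was at 12.7, 12.5 and 13.4 CPM at 2 mM (12.9 ± 0.462) and at 9.91, 11.9 and 11.3 CPM at 11 mM. Every ChREBPβ library was thus below every GFP library, and the glucose groups within each virus did not overlap either. Relative to GFP, ChREBPβ cells differed in log2 level by −1.75 (SE 0.07) at 2 mM, 29.7% of GFP, and −1.66 (SE 0.07) at 11 mM, 31.6% of GFP. The glucose step was −0.31 (SE 0.06) on the log2 scale with GFP and was called, whereas with ChREBPβ it was −0.23 (SE 0.07) and was not, except without replicate b of ChREBPβ at 11 mM, where it was −0.29.

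Slc30a8 and Tmem163 were set against Ins1, a rat insulin gene, and against each other as ratios of counts within a library, which no scaling between libraries can change. Ins1 itself averaged 11700 ± 927 CPM in GFP cells at 2 mM, 8780 ± 584 in GFP cells at 11 mM, 4310 ± 75.1 in ChREBPβ cells at 2 mM and 3600 ± 199 in ChREBPβ cells at 11 mM (SD, n = 3). The Slc30a8 count per Ins1 count was 0.0658, 0.0612 and 0.0545 in GFP cells at 2 mM and 0.0571, 0.0675 and 0.0566 in GFP cells at 11 mM. With ChREBPβ the ratio was 0.0779, 0.0699 and 0.0726 at 2 mM and 0.0841, 0.0737 and 0.0798 at 11 mM, so that all 6 ChREBPβ libraries lay above all 6 GFP libraries. Slc30a8 therefore took a lower share of the library but a higher count per Ins1 count under ChREBPβ. The direction of such a ratio depends on the gene set against it. At 2 mM, ChREBPβ cells held 45% of the GFP level of Slc30a8, beside 36.9% for Ins1, 37.4% for Ins2 and 34.1% for Iapp. For Chgb the level was 49.1% of GFP and for Chga 71.1%.

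The Tmem163 count per Slc30a8 count moved the other way. It was 0.0576, 0.0622 and 0.0658 in GFP cells at 2 mM, 0.0686, 0.0615 and 0.0686 in GFP cells at 11 mM, 0.0387, 0.0411 and 0.0427 in ChREBPβ cells at 2 mM and 0.0340, 0.0423 and 0.0403 in ChREBPβ cells at 11 mM. The ratio overlapped between glucose concentrations within each virus and did not overlap between viruses.

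**Figure D2:**
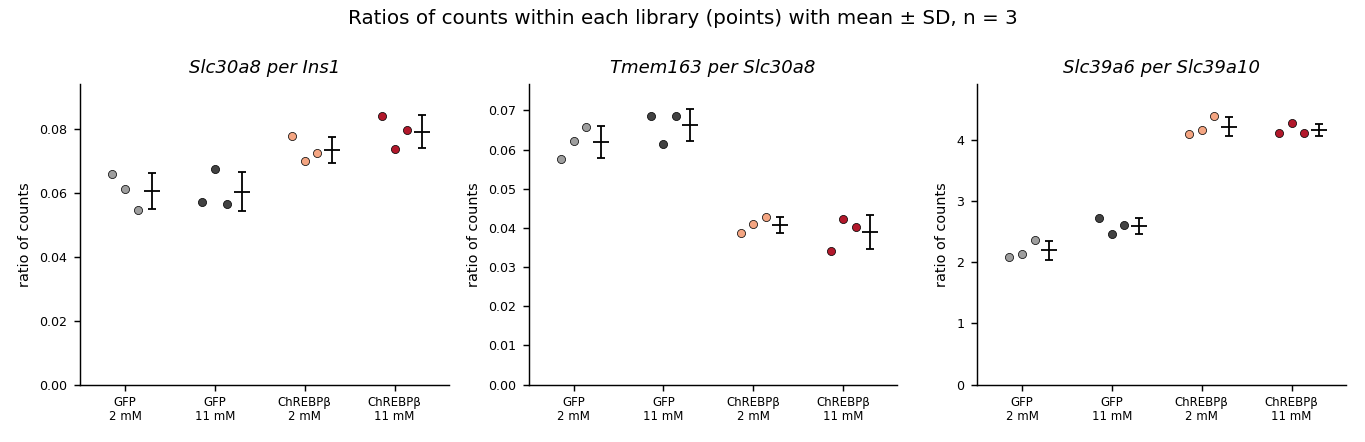
Ratios of the counts of gene pairs within each library (points, linear axes from 0) with the mean ± SD of the 3 libraries of each group. The ChREBPβ libraries lie above the GFP libraries for Slc30a8 per Ins1 and for Slc39a6 per Slc39a10, and below them for Tmem163 per Slc30a8.

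Slc30a4, found in endosomes and the trans-Golgi network, was lower with ChREBPβ by a smaller amount. Its level was 97.8, 91.7 and 83.2 CPM in GFP cells at 2 mM, 85.1, 95.4 and 82.9 CPM in GFP cells at 11 mM, 74.5, 73.9 and 68.0 CPM in ChREBPβ cells at 2 mM and 72.1, 70.8 and 68.5 CPM in ChREBPβ cells at 11 mM. All ChREBPβ libraries were below all GFP libraries, and the glucose groups overlapped within each virus. Relative to GFP, ChREBPβ cells differed in log2 level by −0.33 (SE 0.06) at 2 mM and −0.32 (SE 0.06) at 11 mM, where the call was lost at −0.25 without replicate b of GFP at 11 mM.

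Slc30a5, which works in the early secretory pathway as a heterodimer with Slc30a6, was at 94.8 to 101 CPM in GFP cells at 2 mM, 89.6 to 94.9 CPM in GFP cells at 11 mM, 80.0 to 81.8 CPM in ChREBPβ cells at 2 mM and 76.8 to 82.7 CPM in ChREBPβ cells at 11 mM. The ranges of the viruses were separate, and those of the glucose concentrations overlapped. On the log2 scale ChREBPβ cells differed from GFP cells by −0.28 (SE 0.04) at 2 mM, called but not without replicate a of GFP at 2 mM (−0.26), and −0.22 (SE 0.04) at 11 mM, not called, although scaling by library totals gave −0.30 and a call. Its partner Slc30a6, not a member, was at 16.7 to 19.6 CPM over all 12 libraries, and its groups overlapped in each comparison. The mean count of Slc30a5 per Slc30a6 count was 5.23 ± 0.224 and 5.30 ± 0.356 with GFP at 2 and 11 mM and 4.49 ± 0.263 and 4.31 ± 0.019 with ChREBPβ (SD, n = 3).

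The other 2 exporters among the members were not called in any comparison. Slc30a7, a Golgi transporter, was at 55.2 to 60.6 CPM with GFP and 56.7 to 59.9 CPM in ChREBPβ cells at 2 mM, overlapping ranges, and at 64.9 to 67.2 CPM and 63.9 to 65.8 CPM at 11 mM. Its larger differences were those of glucose, 0.20 (SE 0.05) on the log2 scale with GFP and 0.17 (SE 0.05) with ChREBPβ, both with every library at 11 mM above every library at 2 mM and both under the minimum change. Slc30a1, the exporter of the plasma membrane, was at 28.3, 32.0 and 27.2 CPM in GFP cells at 2 mM and between 32.2 and 37.4 CPM in the other 9 libraries. On the log2 scale ChREBPβ cells differed from GFP cells by 0.19 (SE 0.07) at 2 mM and 0.06 (SE 0.06) at 11 mM. Without replicate b of GFP at 2 mM Slc30a1 was called higher in ChREBPβ cells at 2 mM (0.26) and at 11 mM glucose with GFP (0.28).

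**Figure D3:**
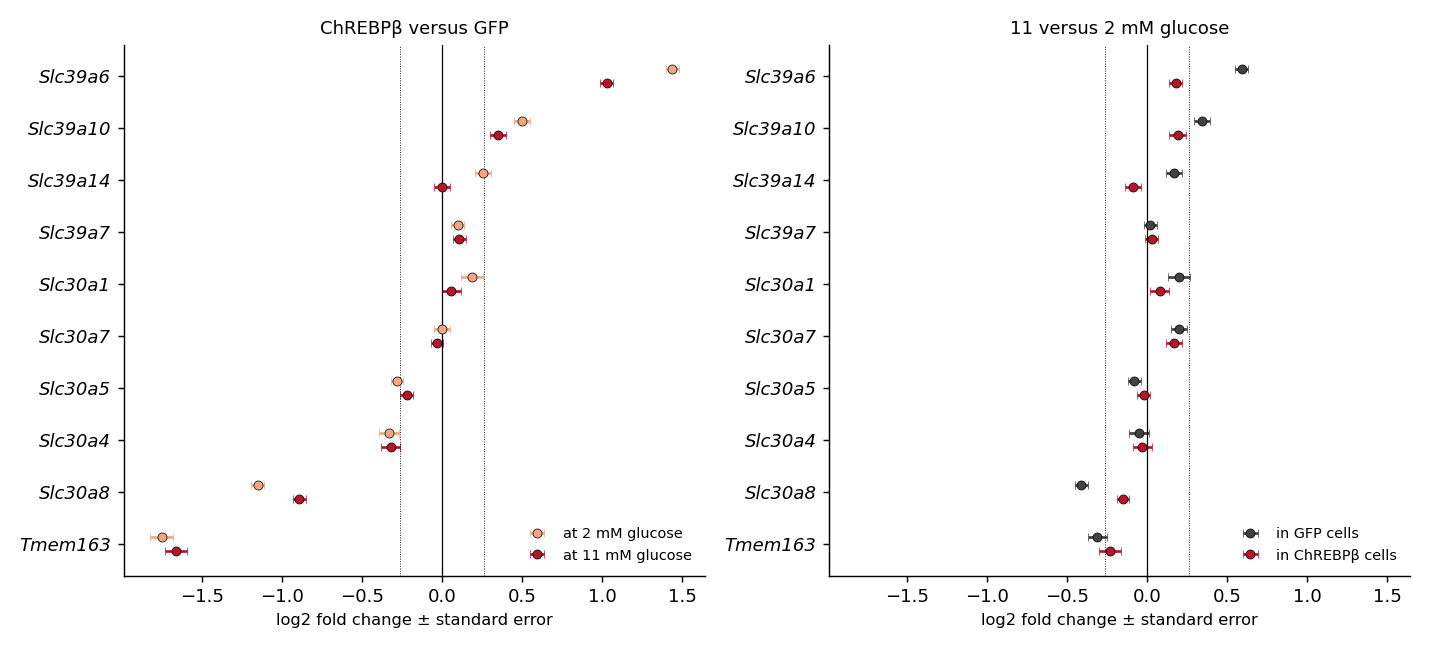
Log2 fold change of each of the 10 genes (points, with bars of 1 SE from the edgeR fit) for ChREBPβ against GFP at each glucose concentration and for 11 against 2 mM glucose with each virus, with dotted lines at the minimum change of 1.2-fold. Tmem163 (−1.75 and −1.66) and Slc30a8 (−1.15 and −0.89) lie farthest below 0 and Slc39a6 (1.44 and 1.03) farthest above 0 in the virus comparisons.

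The importers that were called were higher with ChREBPβ. Slc39a6 and Slc39a10 are close relatives that can form a complex in the plasma membrane. Slc39a6 was at 125, 119.9 and 126 CPM in GFP cells at 2 mM (123 ± 3.13, SD, n = 3) and at 181, 184 and 193 CPM in GFP cells at 11 mM (186 ± 6.21). With ChREBPβ it was at 336, 330.1 and 342 CPM at 2 mM (336 ± 6.08) and at 375, 379 and 387 CPM at 11 mM (380 ± 5.75). The 4 groups formed the reverse of the Slc30a8 order, without overlap between neighbours. In log2 units the ChREBPβ effect was 1.44 (SE 0.04) at 2 mM, a 2.72-fold higher level, and 1.03 (SE 0.04) at 11 mM, 2.05-fold. The glucose step was 0.59 (SE 0.04) with GFP, 1.51-fold, and 0.18 (SE 0.04) with ChREBPβ, which was under the minimum change.

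Slc39a10 followed the same order at a smaller scale. It was at 60.0, 56.2 and 53.2 CPM in GFP cells at 2 mM, 66.5, 74.7 and 73.9 CPM in GFP cells at 11 mM, 82.1, 79.4 and 78.0 CPM in ChREBPβ cells at 2 mM and 91.5, 88.4 and 94.0 CPM in ChREBPβ cells at 11 mM. Neighbouring groups again did not overlap. In log2 units the ChREBPβ effect was 0.50 (SE 0.05) at 2 mM, 1.41-fold, and 0.35 (SE 0.05) at 11 mM, 1.27-fold. The glucose step with GFP was 0.34 (SE 0.05) and was called, and that with ChREBPβ was 0.19 (SE 0.05) and was not.

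The balance of these partners changed with the virus. The Slc39a6 count per Slc39a10 count was 2.08, 2.13 and 2.37 in GFP cells at 2 mM and 2.72, 2.46 and 2.61 in GFP cells at 11 mM. It was 4.09, 4.16 and 4.39 in ChREBPβ cells at 2 mM and 4.11, 4.28 and 4.11 in ChREBPβ cells at 11 mM. The ratio was higher at 11 mM than at 2 mM in every GFP library, whereas the glucose groups overlapped with ChREBPβ.

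Slc39a14, an importer of zinc and iron, was at 55.4, 57.5 and 55.0 CPM in GFP cells at 2 mM, 60.1, 65.2 and 64.1 CPM in GFP cells at 11 mM, 67.9, 64.9 and 68.9 CPM in ChREBPβ cells at 2 mM and 61.2, 64.5 and 63.6 CPM in ChREBPβ cells at 11 mM. Only the GFP libraries at 2 mM stood apart from all others. In log2 units the ChREBPβ effect was 0.26 (SE 0.05) at 2 mM, just past the minimum change, and −0.00 (SE 0.05) at 11 mM. The call at 2 mM was lost with library totals (0.16), with the replicate block (0.26), in a fit of the 2 groups alone (0.26) and without any one of replicates a and c of GFP at 2 mM (0.26 and 0.25) and replicates a and c of ChREBPβ at 2 mM (0.26 and 0.25). Slc39a7, which releases zinc from the endoplasmic reticulum, was at 159 to 171 CPM in GFP cells at 2 mM, 162 to 172 CPM in GFP cells at 11 mM, 172 to 181 CPM in ChREBPβ cells at 2 mM and 172 to 188 CPM in ChREBPβ cells at 11 mM. It was not called in any comparison, and the log2 effect of ChREBPβ was 0.10 (SE 0.04) at 2 mM and 0.11 (SE 0.04) at 11 mM.

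At 2 mM, ChREBPβ libraries had 3 of the 10 members called higher (Slc39a6, Slc39a10 and Slc39a14), beside 21.0% of all tested genes, and 4 called lower (Tmem163, Slc30a8, Slc30a4 and Slc30a5), beside 23.2%. At 11 mM, 2 were called higher (Slc39a6 and Slc39a10), beside 14.3% of tested genes, and 3 lower (Tmem163, Slc30a8 and Slc30a4), beside 19.1%. The median log2 fold change was 0.0505 over the members and −0.0168 over all tested genes at 2 mM, and −0.0146 and −0.0173 at 11 mM. Since the genes were picked from these comparisons, nothing is read from the shares.

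Between glucose concentrations with GFP, 2 members were called higher at 11 mM (Slc39a6 and Slc39a10), beside 10.2% of tested genes, and 2 lower (Slc30a8 and Tmem163), beside 10.0%. This comparison and that of the viruses at 2 mM share the GFP libraries at 2 mM. With ChREBPβ, edgeR called 0 members higher at 11 mM, beside 0.988% of tested genes, and 0 lower, beside 2.88%. At an unadjusted p under 0.05 there were 3 higher and 2 lower, and DESeq2 called 0. The median over the members was 0.0949 with GFP, beside −0.00241 for all tested genes, and 0.00276 with ChREBPβ, beside 0.00303.

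The interaction, the log2 effect of ChREBPβ at 11 mM less that at 2 mM, was called for 2 of the 10 members on the lower side (Slc39a6 and Slc39a14), beside 4.74% of tested genes, and for 0 on the higher side, beside 1.56%. On the higher side the count at an unadjusted p under 0.05 was 1, and DESeq2 called 1. For Slc39a6 the interaction was −0.41 (SE 0.05), the difference between 1.44 at 2 mM and 1.03 at 11 mM. For Slc39a14 it was −0.26 (SE 0.07), called near the minimum change, and the call was lost under 12 alternatives, namely RLE factors, library totals, DESeq2, the 10-count filter, the replicate block and 7 fits that left out a library (a or c of GFP at 2 mM, b or c of GFP at 11 mM, a or c of ChREBPβ at 2 mM, a of ChREBPβ at 11 mM), where it was −0.26 to −0.24. For Slc30a8 it was 0.26 (SE 0.06), not called because it lay just under the minimum change. It was called at 0.27 with RLE factors, with DESeq2 and with the 10-count filter, and at 0.28 with library totals. It was also called, at 0.26 to 0.29, without c of GFP at 2 mM, b of GFP at 11 mM, a of ChREBPβ at 2 mM, or b or c of ChREBPβ at 11 mM. For Tmem163 it was 0.09 (SE 0.10), so that its 2 effects of −1.75 and −1.66 differed by less than the error of the difference. The median interaction was −0.00961 over the members and −0.00642 over all tested genes.

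Scaling mattered for the smaller effects. With library totals in place of TMM, the median log2 fold change with ChREBPβ of all tested genes became −0.12 at 2 mM and −0.10 at 11 mM, from −0.02 at both, and the share of higher genes among those called changed from 47.5% to 33.2% and from 42.9% to 29.3%. The signs of Slc30a8, Tmem163, Slc30a4, Slc30a5, Slc39a6 and Slc39a10 with ChREBPβ were the same under both scalings.

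The family beyond these members was followed in 15 other Slc30 and Slc39 genes, of which 9 passed the filter. Slc30a2 and Slc39a2 had 0 counts in every library, and Slc30a10, Slc39a4, Slc39a8 and Slc39a12 had at most 6, 2, 5 and 1 counts in a library. To these 9 were added 4 tested genes of zinc storage and sensing (Mt1, Mt3, Mtf1 and the zinc receptor Gpr39), while Mt1m, Mt2A and Mt4 had 0 counts. Of the 13 tested genes, chosen by family or role, edgeR called Slc30a3 higher and Mt1 lower with ChREBPβ at both glucose concentrations, 1 of 13 in each direction, beside the shares of all tested genes given above. The median log2 fold change of the 13 was −0.0482 at 2 mM and −0.00768 at 11 mM. With library totals 5 were called lower at 2 mM (Slc39a1, Mtf1, Gpr39, Slc39a11 and Mt1). The adjusted p-values given below for Slc30a3, Mt1 and Mtf1 are a description, since these genes were listed with earlier results known.

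Slc30a3, which loads zinc into synaptic vesicles, was a rare transcript with 20 to 163 counts in a library. Its level was 0.772, 0.583 and 0.961 CPM in GFP cells at 2 mM, 1.28, 1.42 and 1.18 CPM in GFP cells at 11 mM, 2.43, 2.16 and 2.22 CPM in ChREBPβ cells at 2 mM and 2.42, 1.95 and 2.98 CPM in ChREBPβ cells at 11 mM. Every ChREBPβ library was above every GFP library, and the ChREBPβ groups overlapped. Slc30a3 rose with ChREBPβ by 1.55 on the log2 scale at 2 mM (SE 0.23, edgeR adjusted p = 9.38e-06) and by 0.92 at 11 mM (SE 0.20, edgeR adjusted p = 0.000606). It also rose with glucose in GFP cells by 0.75 (SE 0.25, edgeR adjusted p = 0.0241), a call that was lost in a fit of the 2 groups alone and without replicate a or b of GFP at 2 mM or replicate b of GFP at 11 mM, where it was 0.57 to 0.75. In ChREBPβ cells the glucose difference was 0.12 (SE 0.18, edgeR adjusted p = 0.784), and the interaction of −0.63 did not pass the test (SE 0.31, edgeR adjusted p = 0.251).

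**Figure D4:**
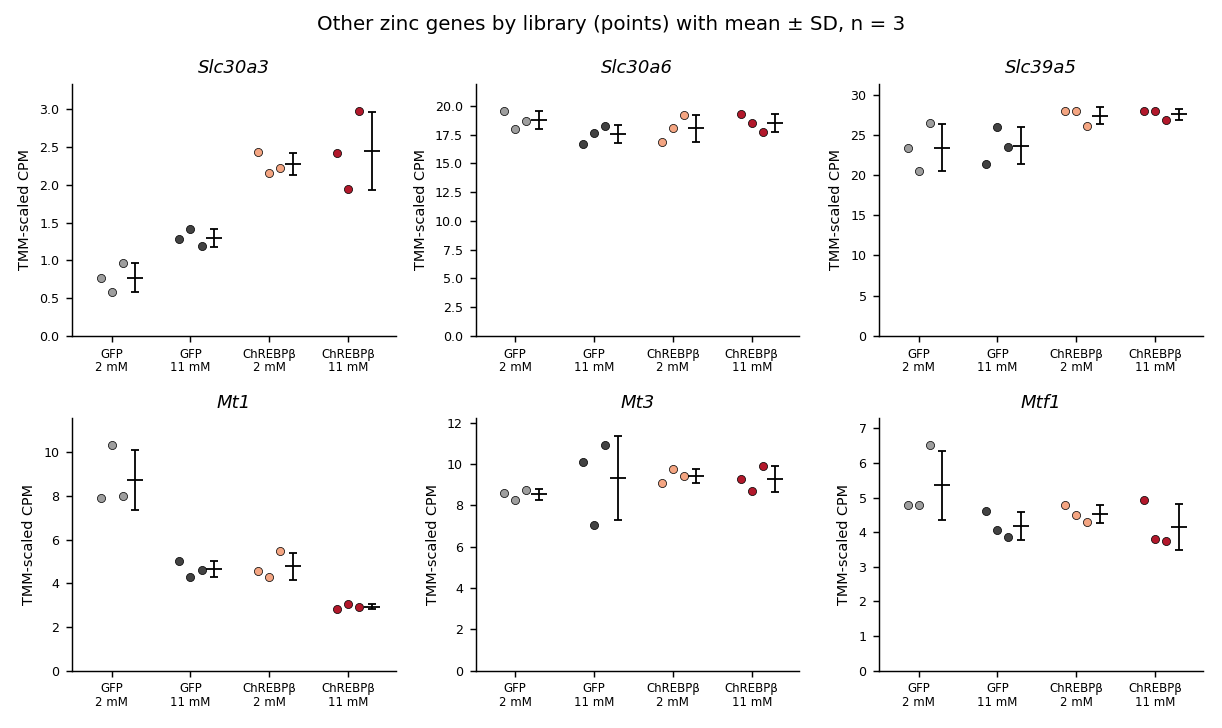
Level of 6 zinc genes outside the 10 members in every library (points, TMM-scaled CPM on linear axes from 0) with the mean ± SD of the 3 libraries of each group. Slc30a3 steps up from GFP to ChREBPβ and Mt1 is highest in GFP cells at 2 mM and lowest in ChREBPβ cells at 11 mM, while the groups of Slc30a6 overlap.

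Mt1, a metallothionein that binds zinc in the cytosol, fell with ChREBPβ and with glucose. It was at 7.90, 10.3 and 8.01 CPM in GFP cells at 2 mM, 5.04, 4.31 and 4.63 CPM in GFP cells at 11 mM, 4.58, 4.30 and 5.48 CPM in ChREBPβ cells at 2 mM and 2.85, 3.05 and 2.91 CPM in ChREBPβ cells at 11 mM. The GFP group at 11 mM and the ChREBPβ group at 2 mM overlapped, and both lay between the other 2 groups. In log2 units the ChREBPβ effect was −0.87 at 2 mM (SE 0.13, edgeR adjusted p = 6.92e-06) and −0.67 at 11 mM (SE 0.13, edgeR adjusted p = 0.000316). With glucose it was −0.91 in GFP cells (SE 0.13, edgeR adjusted p = 1.47e-05) and −0.71 in ChREBPβ cells (SE 0.13, edgeR adjusted p = 0.00185), and the interaction of 0.20 did not pass the test (SE 0.18, edgeR adjusted p = 0.603). Mt1 has near-identical relatives among which reads could be split, so its level is uncertain. Mtf1, the zinc-sensing factor, was at 4.78 to 6.51 CPM in GFP cells at 2 mM and 4.30 to 4.80 CPM in ChREBPβ cells at 2 mM, a difference of −0.25 that did not pass the test (SE 0.15, edgeR adjusted p = 0.148). Its larger difference was that of glucose in GFP cells, −0.36 with every library at 11 mM below every library at 2 mM (SE 0.15, edgeR adjusted p = 0.0665). That missed the threshold and was called with no filter, with library totals and without replicate a or b of GFP at 2 mM or replicate a of ChREBPβ at 11 mM. Slc30a1, the classical Mtf1 target among the members, was not called in any comparison of the 12 libraries. Its log2 differences of 0.19 (SE 0.07) with ChREBPβ at 2 mM and 0.20 (SE 0.07) with glucose in GFP cells were under the minimum change. Both were upward, the opposite direction to Mt1.

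**Figure D5:**
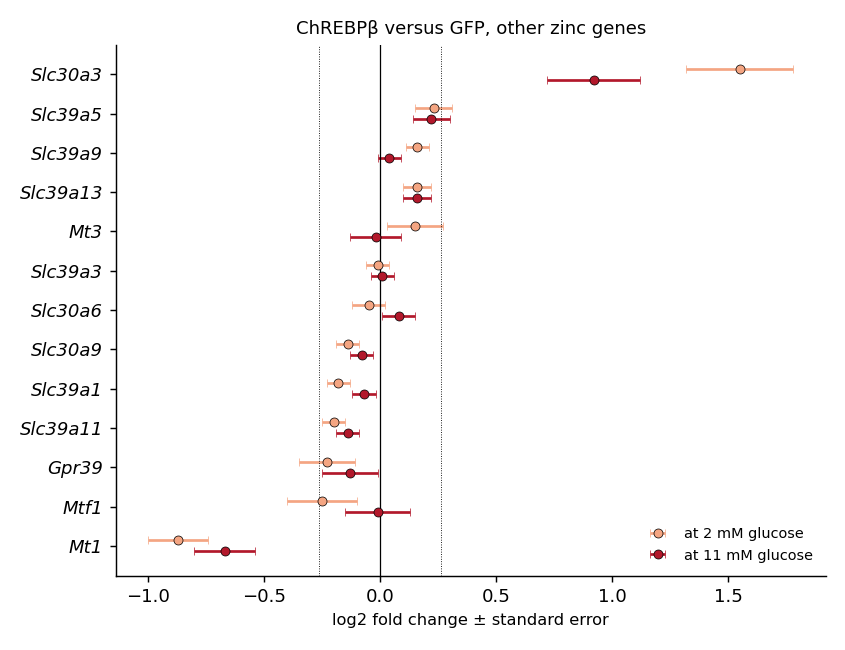
Log2 fold change of the 13 tested zinc genes outside the members (points, with bars of 1 SE from the edgeR fit) for ChREBPβ against GFP at 2 mM and at 11 mM glucose, with dotted lines at the minimum change of 1.2-fold. Slc30a3 (1.55 and 0.92 with ChREBPβ) and Mt1 (−0.87 and −0.67) are the genes called in the virus comparisons.

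Between glucose concentrations with GFP, 1 of the 13 was called higher (Slc30a3), beside 10.2% of all tested genes, and 1 lower (Mt1), beside 10.0%. Nothing is read from the shares in this paragraph either. With ChREBPβ edgeR called 0 higher, beside 0.988%, and 1 lower (Mt1), beside 2.88%, and at an unadjusted p under 0.05 there was 1 higher, while DESeq2 called 0 higher. The interaction was called for 0 of the 13 by edgeR and by DESeq2, beside 1.56% of tested genes on the higher and 4.74% on the lower side, and 0 had an unadjusted p under 0.05.

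The genes whose levels ran most like those of Slc30a8 and Tmem163 were taken from the 10447 genes that averaged 5 CPM or more, by Pearson's r of log2 CPM over the 12 libraries, as a description. The 12 libraries share 4 group means, so the points are not independent and high values are common. For Slc30a8 the leading genes were Amigo2 and Plxnc1 (r = 0.998), Gprasp2 and Fgl2 (r = 0.997) and Cds1 (r = 0.996). Ins1 came at rank 102 (r = 0.986), Tmem163 at rank 193 (r = 0.982), Slc30a5 at rank 417 (r = 0.970) and Slc30a4 at rank 1344 (r = 0.914). For Tmem163 the leading genes included Aldh7a1, App and Rhbdl3 (r = 0.996) and Esyt1 (r = 0.995), with Ins1 at rank 13 (r = 0.994) and Slc30a8 at rank 126 (r = 0.982). The Tmem163 pattern thus had fewer genes ahead of Ins1 than the Slc30a8 pattern did.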

How the data were processed

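RNA of INS-1 832/13 cells was submitted to a service provider and amplified before sequencing. The authors deposited raw counts per gene of 12 libraries without normalization. The authors also deposited the mean signal of each group, which equalled the mean of the 3 raw count columns and was not used further. The submitters' processing notes name the rat build Rnor_6.0 and edgeR, without giving their roles, and the aligner and counter are not given in the sources used here. The number of other columns of single samples was 0. One entry without a gene name, 0.0043% to 0.00601% of a library, was left out.

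Genes were filtered with filterByExpr by group (14669 of 28727 kept), scaled with TMM factors and fitted in a single quasi-likelihood model of the 4 groups with edgeR 4.0.16 in R 4.3.3, and p-values were adjusted by Benjamini-Hochberg over the 14669 genes. Calls took a change of 1.2-fold or more, the study's minimum, with an adjusted p under 0.05. The 10 members, the other lists and the alternatives were chosen with earlier results of these data known. Genes named are the 10 members, the other zinc genes that were called, are partners of a member or failed the filter, and the 5 genes most like Slc30a8 and Tmem163 over libraries, of which 1 is not reported here. Ins1 and Mlxipl were named with them, and the ChREBPb, Mtf1 and Gpr39 entries, the genes called with library totals and the marker genes were named after their values were seen. On data simulated for the 2 mM virus comparison, the test recovered 157 of 195 changed genes (80.5%) with 7 false calls among 14470 genes. The libraries themselves gave 6476 calls in that comparison, and recovery with so many changed genes was not tested. Recovery of genes near the 1.2-fold minimum was not tested separately. Alternatives were RLE factors, library totals, DESeq2 1.42.0, the replicate letter as a block, a minimum of 10 counts per library or no filter, only the groups compared, no minimum fold change or a minimum of 2, and leaving out each library. For Slc30a3 and Mt1 singly these were added after seeing the data. Promoter windows came from RefSeq for GRCr8, and no other coordinates were used. Library totals were 25754488 to 60531215 counts, so counting error is small for the members and larger for Slc30a3.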

Additional observations from a re-analysis of the deposited data

Results flagged for a closer look

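The effect of ChREBPβ on Slc39a6 differed between glucose concentrations, with an interaction of −0.41 on the log2 scale (1.44 at 2 mM and 1.03 at 11 mM). The level was higher at 11 than at 2 mM in both viruses, 186 ± 6.21 against 123 ± 3.13 CPM with GFP and 380 ± 5.75 against 336 ± 6.08 CPM with ChREBPβ (SD, n = 3). The effect on Slc39a14 also differed, with an interaction of −0.26 (0.26 at 2 mM and −0.00 at 11 mM), where the GFP libraries at 2 mM were below the other 9. That call was lost under 12 alternatives, namely RLE factors, library totals, DESeq2, the 10-count filter, the replicate block and 7 fits without a library, at −0.26 to −0.24. Both genes were selected from results of these libraries, so these values are a description.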

How the results depend on the processing

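Over 50 pairs of a member and a comparison, 940 values were recomputed under the alternatives of scaling, tool, filter, block and libraries, leaving aside those of the minimum fold change. The sign of a called change turned in 0 of them, 21 lost the call, 13 gained it and 12 uncalled values changed sign. With a minimum fold change of 2 the members called were 3 at 2 mM, 2 at 11 mM, 0 for glucose with GFP and 0 for the interaction, and the other zinc genes called were 1, 0, 0 and, for glucose with ChREBPβ, 0. With no minimum, the members called were 7 for glucose with GFP and 4 for glucose with ChREBPβ, and the other zinc genes were 8 at 2 mM, 5 at 11 mM and 5 for glucose with GFP. Fewer or more calls follow here from the threshold itself. Library totals gave 6 other zinc genes at 2 mM, and a fit of only the groups compared gave 1 for glucose with GFP. The cause was not tested.

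Leaving out a library gave 0 to 1 members for glucose with ChREBPβ, the 1 being Tmem163 without replicate b of ChREBPβ at 11 mM. It gave 1 to 3 members for the interaction, with 1 (Slc39a6) without replicate a of GFP at 2 mM, c of GFP at 11 mM, c of ChREBPβ at 2 mM or a of ChREBPβ at 11 mM. Libraries of the same letter showed no shared deviation over the tested genes: 18 correlations were −0.11 to 0.06, with 0 over 0.1. Libraries of different letters were not compared, and all tested genes counted alike. Whether the letters mark matched experiments is therefore not settled by these values. With the replicate block the interaction was called for 1 member and Slc39a14 at 2 mM lost its call.

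Library depth leaves small counting error for the members. With no minimum fold change, calls were added for Slc30a1 at 2 mM, Slc30a5 and Slc39a7 at 11 mM, Slc30a7, Slc30a1 and Slc39a14 for glucose with GFP, Slc30a7, Slc39a10, Slc39a6 and Slc30a8 for glucose with ChREBPβ, and the Slc30a8 interaction.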
